A study of Mus musculus with 8 samples.

Results

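The genes described here are the cytochrome P450 genes of families 1 to 3 in mouse liver. They were taken by symbol, Cyp1, Cyp2 or Cyp3 followed by a letter, so that Cyp26, Cyp27 and Cyp39 stay out, and 47 of the 62 such symbols in the tables had 20 or more reads in 2 or more of the 8 libraries. The 47 are called members below, and they were set beside 10855 genes that passed the same read filter. They comprise 2 genes of the Cyp1a subfamily, 4 of Cyp2a, 1 of Cyp2b, 14 of Cyp2c, 10 of Cyp2d, 3 of Cyp2j, 7 of Cyp3a and 1 each of Cyp2e, Cyp2f, Cyp2g, Cyp2r, Cyp2t and Cyp2u. Of these, 39 reached 20 reads in all 8 libraries and 8 in fewer.

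Cytochromes P450 of these families are haem enzymes of the endoplasmic reticulum that oxidise drugs, environmental chemicals, steroids and fatty acids, using electrons that P450 oxidoreductase draws from NADPH. Hepatocytes are their main site, and many are induced through the receptors Ahr, Nr1i3 (the constitutive androstane receptor) and Nr1i2 (the pregnane X receptor). The clock-controlled PAR bZIP factors Dbp, Tef and Hlf are known to act on some of them, several mouse genes have male- or female-biased expression, and most lie in clusters of closely similar copies.

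Polyadenylated liver RNA was sequenced from wild-type C57/BL6 mice that had been kept for a week in light and dark phases of 12 h each and then for a day in constant darkness. There was 1 library at each of 8 circadian times (CT, in hours), 6 h apart from CT23 to CT65, and each library pooled RNA of 3 animals. The times fall on 4 clock phases on 2 successive days, CT23 with CT47, CT29 with CT53 (phase CT5), CT35 with CT59 (phase CT11) and CT41 with CT65 (phase CT17). All animals carried the same genotype and no agent was given; sex and age are not in the labels used here. With no second library at any time, every p-value below rests on the scatter of pooled libraries around a fitted model. That model is a 24-h curve or, for the comparison of days, clock phase plus day. In bulk RNA fewer cells of a type and less RNA per cell cannot be told apart.

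Values are RPKM (reads per kilobase of transcript per M reads, M being the mega prefix), and each transcript has a lower and an upper value in the deposited tables. The lower value is used unless the upper is named; what separates them is not stated in the labels or file headers. The reads behind 1 RPKM corresponded to 11.7 to 13.9 M reads in 7 libraries and to 22.9 M reads at CT35, where 27.5% of transcripts had an upper value above the lower one against 15.2% to 16.8% elsewhere. All 7 hepatocyte markers were present, with a summed level of 41285 to 68660 RPKM. Among 5 markers each, the summed level was 86.9 (CT35) to 193 (CT23) RPKM for stellate cells and 15.7 to 24.7 for cholangiocytes, but 46.97 at CT35; their part in the results was not tested. The 9 pericentral hepatocyte markers, from the zone where Cyp2e1 and Cyp1a2 are known to be enriched, summed to 565 (CT23) to 1052 (CT35) RPKM.

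The members' mean levels ran from 0.652 RPKM (Cyp1a1) to 3069 RPKM (Cyp2e1), and their combined level was 9179 to 13293 RPKM. They took 3.01% to 4.11% of the reads assigned to named genes by the lower value, and 0.475% (CT35) to 1.33% (CT53) by the upper value. By mean level 17 members were at 100 RPKM or more, 10 between 10 and 100, and 20 below 10. Cyp2e1, which oxidises ethanol, paracetamol and small solvents, was the most abundant in every library and held 22.0% to 33.7% of the members' reads. It was followed by Cyp3a11, the main drug-oxidising enzyme of mouse family 3, with a mean of 1398 ± 286 RPKM (SD over the 8 times) against 3069 ± 705 for Cyp2e1. Next in order came Cyp2f2 (987 ± 105), Cyp1a2 (761 ± 97.9), Cyp2d9 (680.1 ± 104), Cyp2c29 (634 ± 70.4), Cyp2d26 (525 ± 94.8), Cyp2a5 (440.5 ± 231), Cyp2c50 (375 ± 43.1) and Cyp2a12 (351 ± 18.7). These SDs hold both time and sampling. Neighbours from Cyp1a2 to Cyp2c29, and again from Cyp2d26 to Cyp2a12, differed by less than the larger SD of each pair. Such an SD is not the error of a difference between genes in the same libraries, so it cannot decide their order. That order was not tested.

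**Figure D1:**
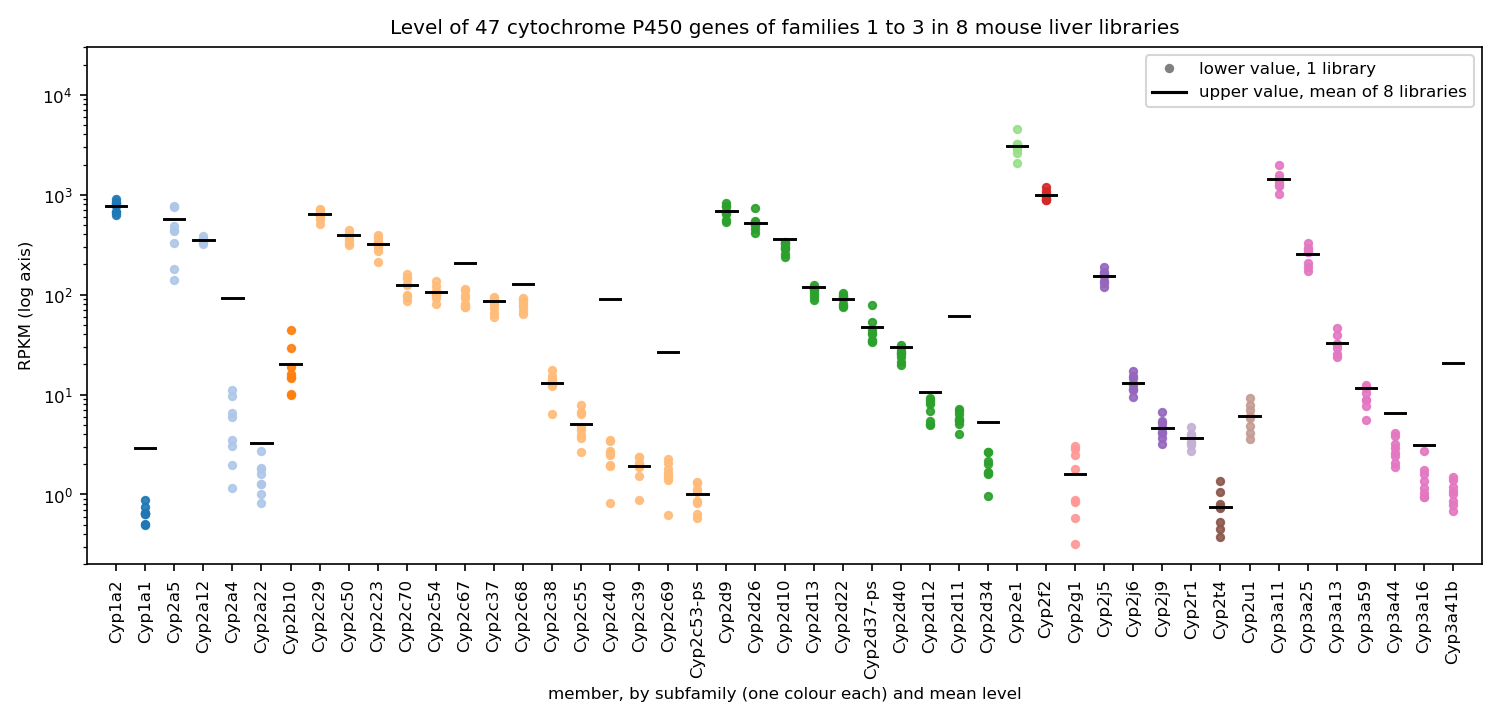
RPKM on a log axis (vertical) of the 47 members, grouped by subfamily (horizontal); each dot is the lower value of 1 library and each black bar is the mean upper value of 8 libraries. Cyp2e1 lies at the top with a mean of 3069 RPKM, and the black bar stands far above the dots for Cyp2a4, Cyp2c40, Cyp2c69, Cyp2d11 and Cyp3a41b.

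A curve with a 24-h period was fitted to each gene on log2(RPKM + 0.5), so folds of weakly expressed genes are understated on this scale. Of the 47 members 1, Cyp2g1, had a 24-h component at an adjusted p under 0.05 (limma, Benjamini-Hochberg over 10855 genes), against 1.84% of all genes tested. At an unadjusted p under 0.05 there were 6 members (Cyp2g1, Cyp2a5, Cyp2b10, Cyp2j9, Cyp2c55 and Cyp3a25), against 15% of all genes. The members' median peak to trough was 0.45 on the log2 scale and that of all genes 0.40. Only 4 members (8.51%) had a fitted curve of 2-fold or more, Cyp2g1, Cyp2a5, Cyp2b10 and Cyp2a4, against 7.07% of all genes. The fitted peak lay nearest to CT5 in 17 members, to CT11 in 9, to CT17 in 11 and to CT23 in 10; the corresponding shares among all genes were 34.8%, 30.0%, 13.8% and 21.5%. A p-value that misses the threshold does not show that a member was constant.

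**Figure D2:**
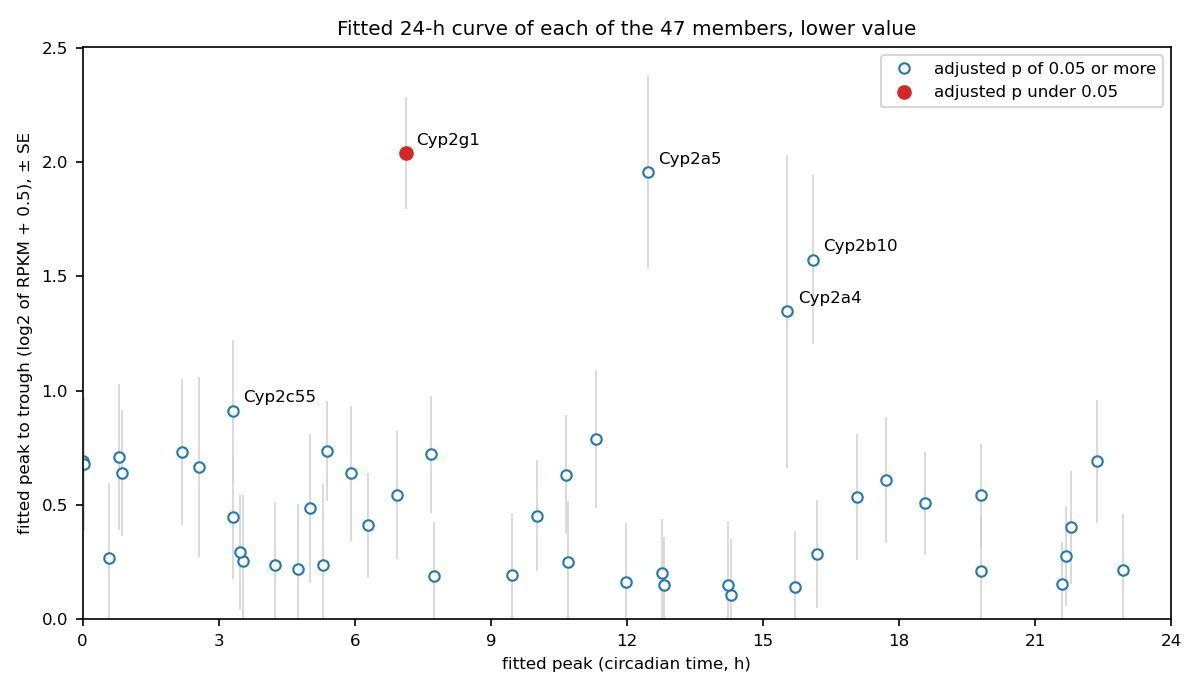
Fitted peak to trough on the log2 scale with its SE (vertical) against the fitted peak in circadian hours (horizontal) for the 47 members. The filled point is Cyp2g1 at 2.04, and of the open points, not past the adjusted threshold, Cyp2a5, Cyp2b10 and Cyp2a4 lie above 1.

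Cyp2g1 is an enzyme best known from the olfactory mucosa, and in these livers it was at the low end of the members. Its gene lies at chr7:27593946-27606216 on the + strand (mm9), ending 14.1 kb before the start of Cyp2a5. From CT23 to CT65 its level was 0.871, 2.47, 1.82, 0.323, 0.837, 2.82, 3.03 and 0.583 RPKM, which rests on 7 (CT41) to 77 (CT35) reads per library and reached 20 reads in 6 libraries. The 4 libraries of phases CT5 and CT11 were all above the other 4, and both CT17 libraries were below both CT23 libraries. The fitted peak was at CT7.13 (SE 0.46 h) with a peak to trough of 2.04 on the log2 scale (SE 0.25, 4.12-fold, limma adjusted p = 0.00493). Leaving out each library in turn gave adjusted p-values from 0.00257 to 0.0248 for this curve. Without the read filter, when many more genes were tested, the adjusted p was 0.0663, and the log2 peak to trough was 2.71 with a pseudocount of 0.1 and 1.11 with a pseudocount of 2.

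The reads of Cyp2g1 did not cover its whole transcript. Its 9 exons held 590 exon reads over the 8 libraries, where a read that touches several exons counts in each (the transcript had 326 reads), and 586 of them (99.3%) fell in exons 6 to 9. Exons 1 to 5 held 4. The same share for exons 6 to 9 was 68.8% in Cyp2a5 and 92.7% in Cyp2a4, which also have 9 exons. No junction read crossed introns 1 to 4, 2 crossed intron 5, and 27, 47 and 82 crossed introns 6, 7 and 8. Intron 5 itself had a mean of 0.343 RPKM, while introns 1, 3 and 4 were listed at 0 and intron 2 at 0.00351. Intron 5 had 0.132, 0.716, 0.351, 0.049, 0.134, 0.6, 0.683 and 0.0827 RPKM from CT23 to CT65, with the CT5 and CT11 libraries again above the other 4. The spliced boundary of exons 5 and 6 is shown here in the GENCODE M21 transcript. It is not where the reads begin, since intron 5 held reads and 2 junction reads crossed it. The last 40 bases of exon 5 are in lower case and the first 80 bases of exon 6, all coding, in capitals.
Cyp2g1: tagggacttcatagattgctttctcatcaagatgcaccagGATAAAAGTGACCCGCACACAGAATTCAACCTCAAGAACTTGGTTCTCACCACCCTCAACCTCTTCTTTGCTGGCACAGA
Of the 50-base windows of this transcript, 5.79% also occur in a transcript of Gm44964. Upper and lower value were nearly the same for Cyp2g1 (1.01-fold), and what the partial coverage stems from was not tested.

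Splice junction reads gave a separate count of spliced RNA from the same libraries. Of 40 members tested on them 2, Cyp2g1 and Cyp2a5, had a 24-h component (edgeR quasi-likelihood F test, adjusted p under 0.05), against 2.26% of all genes. Cyp2g1 had 7, 25, 49, 3, 10, 29, 32 and 3 junction reads, or 1.29, 4.74, 3.32, 0.518, 1.61, 4.72, 5.74 and 0.523 per M junction reads, with a log2 peak to trough of 3.12 (SE 0.54, edgeR adjusted p = 0.0192). DESeq2 called 3 members (also Cyp2b10), but its share of all genes called is not set beside this count. Both edgeR calls were lost without CT23, without CT41 and without CT65, and that of Cyp2a5 also without CT35 and without CT59.

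Cyp2a5, the coumarin 7-hydroxylase of mouse liver that also oxidises nicotine, showed the widest range among the abundant members. It lies at chr7:27620358-27628283, + strand (mm9). Its level was 141, 181, 752, 484, 326, 433, 761 and 446 RPKM from CT23 to CT65. CT35 and CT59 were the highest libraries, and CT23 and CT29 the lowest; CT53 was far above CT29 at the same clock phase. The fitted peak lay at CT12.5 (SE 0.82 h), with a log2 peak to trough of 1.96 (SE 0.42, 3.88-fold, limma adjusted p = 0.0767), so it missed the threshold. It passed with edgeR on the recovered reads (adjusted p = 0.0448), with DESeq2 (0.000457), with limma array weights (0.00476), with transcripts named through RefSeq only (0.0429), without CT47 (0.0377) and, narrowly, when each gene was read from its transcript with the most reads (0.04999, a change chosen after seeing the data). With the upper value it missed the threshold (0.105), as it did without CT23 (0.275) and after TMM rescaling (limma adjusted p = 0.0693). Its junction reads were 2970, 2660, 29846, 8639, 5990, 7716, 15037 and 10821, with CT35 sequenced most deeply, or 548, 505, 2023, 1493, 962, 1256, 2699 and 1885 per M, and they gave a log2 peak to trough of 1.94 (SE 0.38, edgeR adjusted p = 0.0486).

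The introns of Cyp2a5 were highest earlier in the day than its exons. Intron RPKM was 3.95, 14.6, 7.59, 8.69, 6.91, 28.4, 17.9 and 8.92 from CT23 to CT65, so that CT53 and CT29 were the highest libraries of their days in introns, and CT59 and CT35 in exons. The fitted intron peak was at CT7.92 (SE 1.18 h) with a log2 peak to trough of 1.67 (SE 0.52, limma adjusted p = 0.288), which did not pass. In many other members, though not in all, CT35 had the lowest intron RPKM, and its part in the intron curve of Cyp2a5 was not tested. The difference between the exon peak at CT12.5 and the intron peak was not tested. The intron peak of Cyp2a5 and the exon peak of its neighbour Cyp2g1 fell at CT7.92 and CT7.13, and that difference was not tested either.

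**Figure D3:**
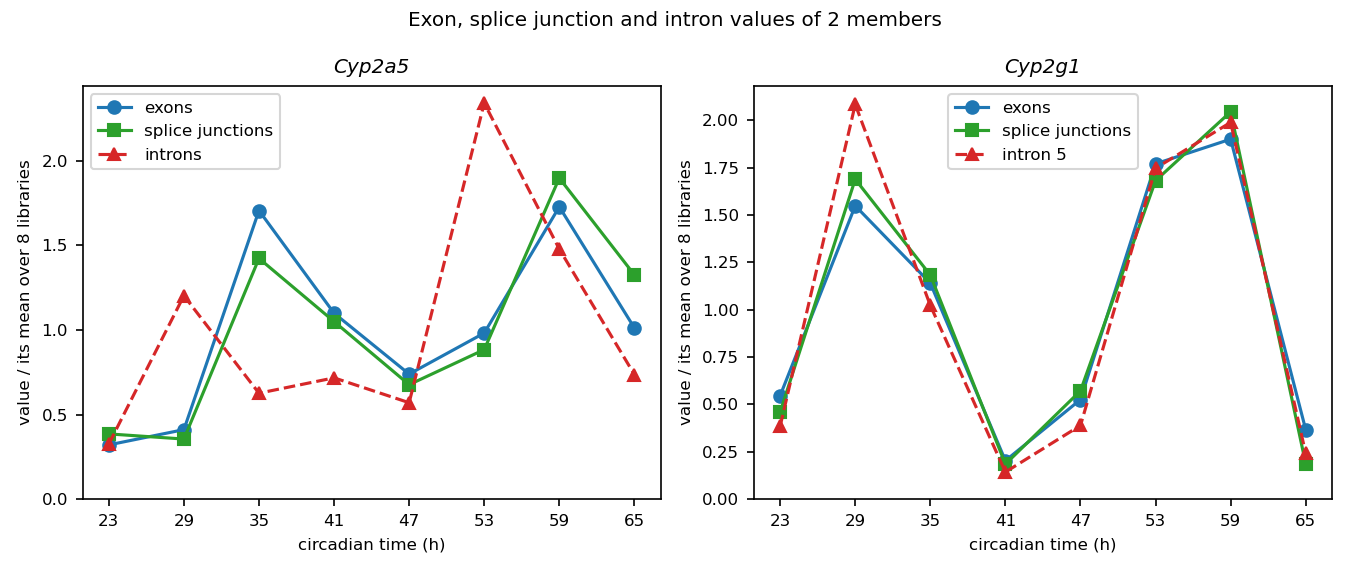
Exon RPKM, splice junction reads per M and intron RPKM, each divided by its mean over the 8 libraries (vertical), against circadian time in hours (horizontal), for Cyp2a5 and for Cyp2g1 (intron 5 alone). In Cyp2a5 the introns peak at CT29 and CT53 and the exons at CT35 and CT59; in Cyp2g1 all 3 measures are lowest at CT41 and CT65.

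Cyp2a4, a steroid 15-alpha-hydroxylase with higher expression in females, is the closest copy of Cyp2a5. The coding sequences, each of 1482 bases, differ at 23 positions (98.4% identity), and the longest identical run spans 216 bases across exons 5 and 6. The first 120 bases of that run, coding positions 742 to 861 of the GENCODE M21 transcripts, read alike in both genes.
Cyp2a4: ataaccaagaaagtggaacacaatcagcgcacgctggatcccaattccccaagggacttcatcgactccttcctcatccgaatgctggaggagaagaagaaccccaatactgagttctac
Cyp2a5: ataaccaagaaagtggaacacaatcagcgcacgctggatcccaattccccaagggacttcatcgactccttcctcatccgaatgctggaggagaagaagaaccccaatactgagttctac
The 120 bases with the most differences, coding positions 550 to 669 in exons 4 and 5, hold 6, which stand in capitals.
Cyp2a4: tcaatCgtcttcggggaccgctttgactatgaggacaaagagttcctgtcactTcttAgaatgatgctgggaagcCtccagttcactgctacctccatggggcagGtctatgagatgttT
Cyp2a5: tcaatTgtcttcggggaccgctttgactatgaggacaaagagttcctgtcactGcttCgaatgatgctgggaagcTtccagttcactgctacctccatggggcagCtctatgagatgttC
They are, from Cyp2a4 to Cyp2a5 and counted from the first coding base, C555T, T603G, A607C, C625T, G655C and T669C.

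The level of Cyp2a4 was 3.05, 1.16, 1.96, 5.93, 3.53, 6.52, 11.2 and 9.75 RPKM by the lower value and 42.1, 40.4, 57.4, 112, 83.8, 105, 178 and 122 by the upper value from CT23 to CT65. CT59 and CT65 were highest and CT29 lowest by the lower value, and CT59 was highest by the upper value too. The upper value averaged 17.2 times the lower one in Cyp2a4 (92.7 against 5.38 RPKM) but 1.29 times in Cyp2a5. The upper value of Cyp2a4 was uneven, with means of 8.22 to 20.7 RPKM in exons 1 to 4 and 70.6 in exon 5. It averaged 563 to 757 RPKM in exons 6 to 8 and 143 in exon 9. In Cyp2a4 80.7% to 98.7% of the upper-value reads of each exon were absent from the lower value, while in exons 1 to 4 of Cyp2a5 1.59% to 3.95% were, and in exon 6, which has 1 coding difference, 37.4%. The lower-value reads of Cyp2a4 were few in exons 1 to 5 (190 of 2616 exon reads) and most numerous in exons 7, 8 and 9 (806, 752 and 759). By the lower value Cyp2a5 exceeded Cyp2a4 by 45.7-fold (CT65) to 383-fold (CT35), and by the upper value by 4.74-fold (CT23) to 14.5-fold (CT35). Neither value gave a 24-h call for Cyp2a4 (limma log2 peak to trough 1.35, SE 0.69, adjusted p = 0.551; upper value 1.13, SE 0.53, adjusted p = 0.510).

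**Figure D4:**
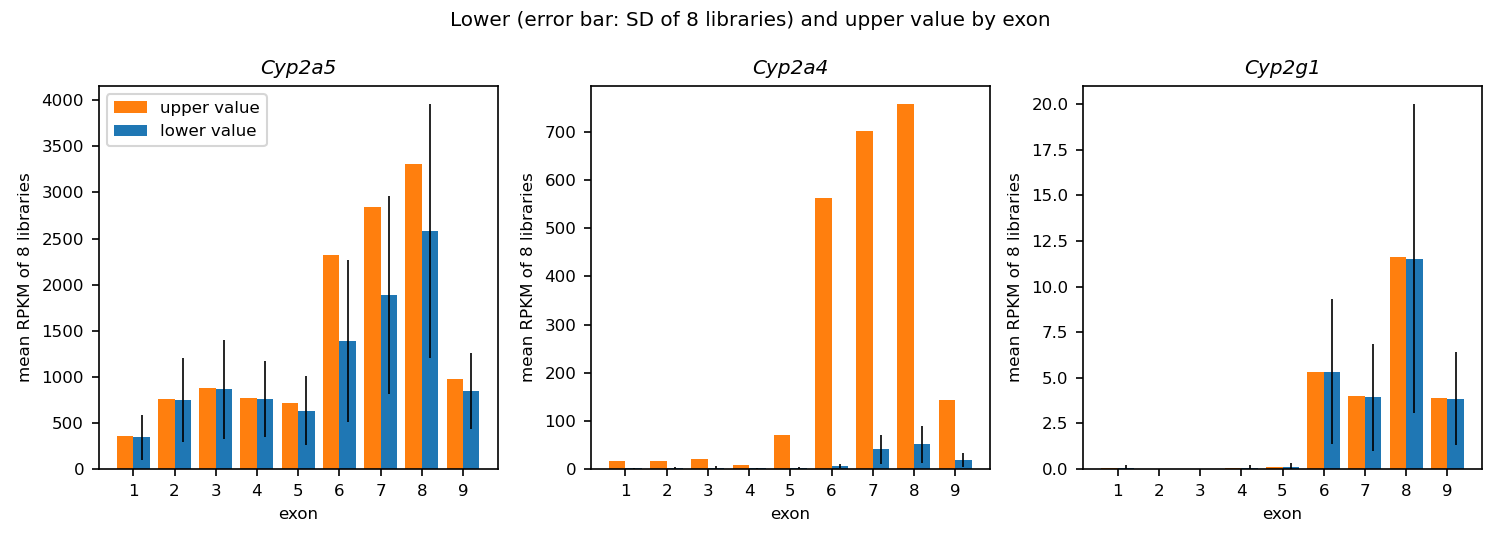
Mean RPKM over 8 libraries (vertical) by exon (horizontal) for Cyp2a5, Cyp2a4 and Cyp2g1, with the upper value in orange and the lower value in blue; error bars are the SD of the lower value over the 8 libraries. The lower value of Cyp2a4 is at most 7.23 RPKM in exons 1 to 6, and Cyp2g1 has almost no signal in exons 1 to 5.

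Cyp2b10, the classical phenobarbital-inducible enzyme and a target of Nr1i3, was highest at phase CT17 on both days. Its level was 10.2, 14.7, 14.8, 44.4, 16.0, 9.99, 18.7 and 29.03 RPKM from CT23 to CT65, in a transcript of 499 bases at chr7:26701785-26702449 (mm9) that had the largest lower value. CT41 and CT65 were the highest libraries and did not overlap the other 6. The fitted peak was at CT16.1 (SE 0.90 h), with a log2 peak to trough of 1.57 (SE 0.37, 2.98-fold), and did not pass (limma adjusted p = 0.105). It passed with edgeR (0.0473), DESeq2 (0.00106) and array weights (0.0243), and without CT35 (0.0464). It missed the threshold with the upper value (limma adjusted p = 0.0964) and after TMM rescaling (limma adjusted p = 0.113). Its transcript of 1822 bases, which has the most reads, gave 4.81 to 20.7 RPKM and again the highest values at CT41 and CT65 (log2 peak to trough 1.51, limma adjusted p = 0.0733). Junction reads per M were 15.9, 25.8, 17.02, 65.8, 31.2, 17.9, 30.9 and 55.7, also highest at CT41 and CT65. Their 24-h curve did not pass the threshold (edgeR adjusted p = 0.110).

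**Figure D5:**
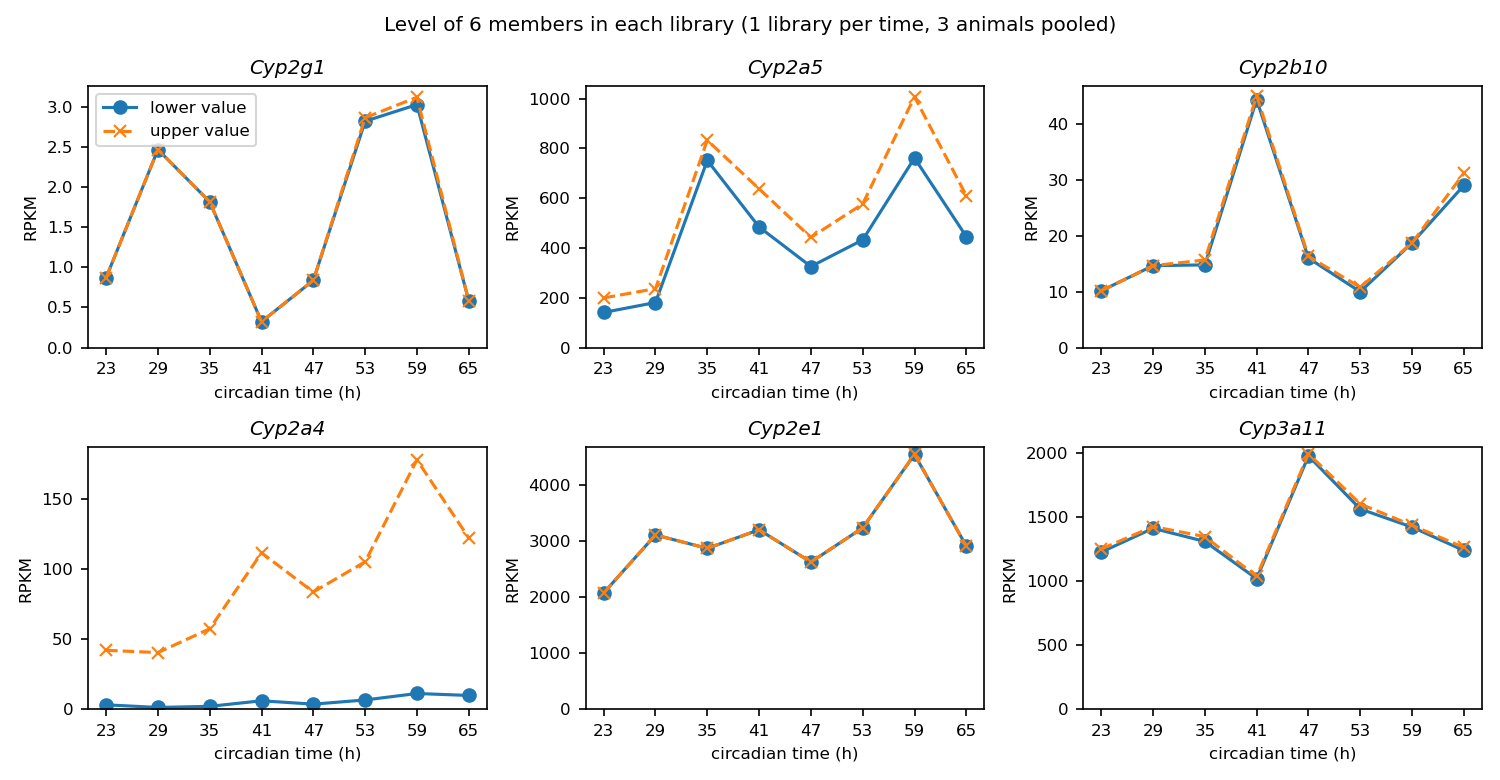
RPKM (vertical) against circadian time in hours (horizontal) for 6 members in 8 libraries, with the lower value as points and the upper value as crosses. Cyp2b10 is highest at CT41 and CT65, where Cyp2g1 is lowest, Cyp2a5 is highest at CT35 and CT59, Cyp2a4 differs by 17.2-fold between its 2 values, and both values of Cyp2e1 and Cyp3a11 nearly coincide.

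The other abundant members had smaller fitted curves than Cyp2a5, and none passed the test. Without Cyp2a5, the 16 members at 100 RPKM or more had fitted curves of 1.08- to 1.65-fold, none with an adjusted p below 0.326 (limma), and their highest library exceeded the lowest by 1.20- to 2.19-fold. Cyp2e1 had 2072, 3106, 2867, 3198, 2623, 3233, 4543 and 2909 RPKM from CT23 to CT65, with CT59 above and CT23 below all others (log2 peak to trough 0.63, SE 0.26, adjusted p = 0.425; with array weights 0.97 and adjusted p = 0.0246). Cyp3a11 had 1228, 1414, 1311, 1020.0, 1980.3, 1565, 1424 and 1241 RPKM, with CT47 highest and CT41 lowest, and CT23 at the phase of CT47 was among the lower libraries (0.45, SE 0.27, adjusted p = 0.637).

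Cyp1a2, which oxidises caffeine and aromatic amines and is induced through Ahr, had 669.6, 623, 665, 818, 770.0, 801, 843 and 899 RPKM, with the phase CT17 library the highest of each day. Cyp2f2, known for the activation of naphthalene, had 1024, 882, 949, 1079, 1185, 977, 891 and 909.5 RPKM, with CT47 highest. The male-biased testosterone 16-alpha-hydroxylase Cyp2d9 had 646, 557, 827, 653, 766, 692, 767 and 531 RPKM, highest at CT35 and lowest at CT65. Cyp2c29, an arachidonic acid epoxygenase, had 618, 574, 510.1, 624, 698, 630.3, 694 and 722 RPKM, with CT35 lowest and CT65 highest. The log2 peak to trough of these 4 was 0.19 to 0.29, with limma adjusted p-values of 0.768 to 0.906.

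No member of the large subfamilies Cyp2c, Cyp2d and Cyp3a passed the 24-h test. The 14 Cyp2c members had fitted curves of 1.14- to 1.88-fold (lowest limma adjusted p = 0.302, Cyp2c55), the 10 Cyp2d members of 1.08- to 1.73-fold (0.380) and the 7 Cyp3a members of 1.12- to 1.65-fold (0.326, Cyp3a25). All 10 Cyp2d members lie within 0.424 Mb on chromosome 15, the 14 Cyp2c members on chromosome 19, and the 3 Cyp2j members within 0.148 Mb on chromosome 4.

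The remaining members with the highest mean of their subfamily, and Cyp2j6, gave no 24-h call. Cyp2j5, an arachidonic acid epoxygenase, had 136, 187, 119, 131, 157, 168, 152 and 165 RPKM from CT23 to CT65, with CT29 highest. Cyp2j6 had 11.1, 15.4, 11.4, 9.54, 13.0, 14.5, 12.4 and 17.1 RPKM, with CT65 highest and CT41 lowest, at the same phase. Cyp2r1, the vitamin D 25-hydroxylase, had 3.75, 3.97, 4.71, 2.75, 3.36, 4.02, 3.30 and 3.12 RPKM, highest at CT35 and lowest at CT41. Cyp2u1, a hydroxylase of long-chain fatty acids, had 7.91, 7.06, 6.04, 4.11, 9.22, 4.83, 5.83 and 3.62 RPKM, with the CT23 and CT47 libraries above the other 6 and both CT17-phase libraries at the bottom. Its log2 peak to trough was 0.73 (SE 0.32, limma adjusted p = 0.469). Cyp2t4 had 0.528, 0.728, 1.37, 0.374, 1.07, 0.804, 0.744 and 0.451 RPKM and passed the read filter in 2 libraries only.

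The gap between upper and lower value was wide in some members, and its cause was not tested. The upper value was at least 2 times the lower one in 11 of the 47 members, against 3.14% of all genes tested, and below 1.1 times in 29. Of the 11, 10 had a mean lower value under 10 RPKM, but the lower value is also the denominator of the ratio, and by the upper value 6 were above 10 RPKM. Cyp2c40 had the widest gap of all members, with 2.63, 3.40, 3.52, 1.93, 2.46, 2.75, 0.83 and 1.98 RPKM by the lower value and 89.1, 113, 76.6, 94.2, 84.8, 99.0, 68.7 and 98.9 by the upper value (37.1 times in the mean), and 72.1% of its 50-base windows occur in a transcript of another gene, most often Cyp2c69. Cyp3a41b had 1.19, 0.685, 1.48, 1.08, 0.789, 1.402, 0.865 and 1.01 and 21.2, 13.3, 33.3, 15.5, 14.4, 35.2, 12.0 and 21.0 RPKM (19.5 times), and 93.5% of its windows occur elsewhere, in Cyp3a41a, which is not analysed here. Cyp2d11 had 5.75, 5.02, 3.99, 7.10, 6.83, 6.37, 5.51 and 5.44 and 54.8, 55.3, 43.8, 71.5, 79.0, 67.9, 63.1 and 49.4 RPKM (10.5 times), with 37.2% of its windows shared, mostly with Cyp2d10. Cyp1a1, the Ahr-inducible enzyme that oxidises polycyclic aromatic hydrocarbons, had 0.88, 0.508, 0.634, 0.751, 0.651, 0.645, 0.649 and 0.495 and 2.70, 2.25, 2.29, 3.30, 5.45, 3.01, 2.73 and 1.82 RPKM (4.51 times), although only 3.55% of its windows are shared with Cyp1a2. These members are uncertain in level; with the upper value the 24-h test called 1 member, again Cyp2g1, and 1.92% of all genes.

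All 6 tested members of the female-biased P450 list (Cyp2a4, Cyp2c40, Cyp2c69, Cyp3a16, Cyp3a41b and Cyp3a44) were among the 11 with an upper value of 2 times the lower or more. Their mean lower values were 1.06 to 5.38 RPKM and their mean upper values 3.13 to 92.7 RPKM. The male-biased Cyp2d9 stood at 680.1 RPKM with an upper value 1.01 times as large. For orientation, Xist was at 0 to 0.137 RPKM and the 4 Y-linked genes summed to 14.1 to 21.9 RPKM in every library. No female-biased member was called in the 24-h test.

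The difference between phases was tested within the same fit. CT5 against CT17 called 1 member, Cyp2g1 (log2 difference 1.73, SE 0.25, limma adjusted p = 0.0100, higher at CT5 in 2 of 2 days), against 0.636% of all genes. The call was lost without CT29, without CT41 and without CT53. CT23 against CT11 called no member by limma, against 1.33% of all genes, with 7 members at an unadjusted p under 0.05 against 12.6%. In this comparison edgeR called 1 member and DESeq2 2, and their shares of all genes called are not set beside these counts. The lowest limma adjusted p-values for CT23 against CT11 were those of Cyp2g1 (0.0608, log2 difference -1.08) and Cyp2a5 (0.0650, log2 difference -1.82), both higher at CT11. The members' split in direction depended on scaling: 26 of 47 were higher at CT5 than at CT17 as given and 21 after TMM rescaling, and 23 and 28 were higher at CT23 than at CT11. The median of all genes shifted by 0.11 between CT5 and CT17 as given and by 0.00031 after rescaling, and Cyp2g1, Cyp2a5 and Cyp2b10 kept their directions.

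Levels on both days were compared with clock phase held fixed. No member differed between days at an adjusted p under 0.05 (limma; 0% of all genes), with 7 at an unadjusted p under 0.05 against 2.37% of all genes, and edgeR and DESeq2 also called none. All 7 were higher on the second day: Cyp2a4 (log2 difference 1.29, SE 0.31), Cyp2a22 (0.63, SE 0.16), Cyp2a5 (0.59, SE 0.26), Cyp2d12, Cyp3a59, Cyp2c55 and Cyp2c53-ps, with unadjusted limma p-values from 0.00133 to 0.0432. With 1 pooled library per time, day and animals cannot be told apart.

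Intron values stand for unspliced RNA. Of 38 members tested on introns none was called (limma), against 1.78% of all genes, and 7 had an unadjusted p under 0.05 against 10.8%. These were Cyp2c67, Cyp2u1, Cyp2c55, Cyp2a5, Cyp2c53-ps, Cyp3a44 and Cyp3a25, of which Cyp2c67 had the lowest adjusted p (0.149) and a log2 peak to trough of 1.48 (SE 0.39). No other tool was run on introns; Cyp2a5 passed without CT35 and Cyp2u1 without CT59. In the exons of Cyp2c67 the log2 peak to trough was 0.24 (SE 0.27). The median log2 peak to trough in introns was 0.72 for the members and 0.38 for all genes. CT35 was the lowest intron library in many members, though not in all, and its part in the members' median was not tested.

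The letters upstream of the members were read from RefSeq promoter windows (GRCm38.p6, 250 bases before to 50 after the start), which were given for 37 of the 47 members. The D-box letters TTATGTAA and TTACGTAA, to which PAR bZIP factors are known to bind, occurred on either strand in no member, against 1.11% and 0.126% of all genes with a window (32851 windows). The E-box CACGTG occurred in 1 member, Cyp2j6, against 8.09% of all genes with a window. TATAAA occurred in 25 of the 37, against 15.7% of genes. With its first base 35 to 25 bases before the start it stood in 8 members (Cyp1a1, Cyp1a2, Cyp2a4, Cyp2a5, Cyp2a22, Cyp2c38, Cyp2c55 and Cyp2e1), against 2.12% of genes. No match says only that these letters are not in this window. The last 100 bases before the start are shown for 3 members of different level and for the Cyp2a pair, whose windows are 97.7% identical, with TATAAA in capitals. They lie at chr7:140763719-140763818 (+) for Cyp2e1, chr9:57683656-57683755 (-) for Cyp1a2, chr7:25897558-25897657 (+) for Cyp2b10, chr7:26307092-26307191 (+) for Cyp2a4 and chr7:26835239-26835338 (+) for Cyp2a5, all GRCm38.p6, a later build than that of the RPKM tables.
Cyp2e1: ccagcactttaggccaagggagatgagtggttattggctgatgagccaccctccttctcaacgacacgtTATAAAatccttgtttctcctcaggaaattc
Cyp1a2: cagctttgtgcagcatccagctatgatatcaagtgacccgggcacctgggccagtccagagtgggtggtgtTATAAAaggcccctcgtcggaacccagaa
Cyp2b10: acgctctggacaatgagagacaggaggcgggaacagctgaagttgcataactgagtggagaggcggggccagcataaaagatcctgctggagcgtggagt
Cyp2a4: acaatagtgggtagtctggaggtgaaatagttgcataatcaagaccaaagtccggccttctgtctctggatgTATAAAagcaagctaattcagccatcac
Cyp2a5: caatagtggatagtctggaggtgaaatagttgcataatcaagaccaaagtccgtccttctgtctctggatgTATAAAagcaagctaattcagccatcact
Cyp2b10 has no exact TATAAA there. Cyp2a4 and Cyp2a5 both hold it, and their mean levels differed by 81.8-fold by the lower and 6.13-fold by the upper value.

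Genes that supply the members with electrons and haem were read from a list of 10, of which 1 was called, Cyb5r1 (log2 peak to trough 1.66, SE 0.27, peak CT5.32, limma adjusted p = 0.0225). The 2 of highest mean not called were Cyb5a, the cytochrome b5 that supports some P450 reactions (757 RPKM, log2 peak to trough 0.25, adjusted p = 0.848), and the oxidoreductase Por (436 RPKM, 1.60, SE 0.37, peak CT12.5, adjusted p = 0.101). Of 20 regulators of P450 genes 19 were tested and 5 called, among them Dbp (log2 peak to trough 6.85, peak CT9.30, limma adjusted p = 0.000217), Nr1d1 (5.35, CT6.65), Tef (2.57, CT10.9) and Nfil3 (2.23, CT20.4). Of all genes tested 1.84% were called. The regulator list holds clock-controlled factors, and both lists were chosen with earlier results of these data known. The 2 of highest mean not called were the hepatocyte factor Hnf4a (145 RPKM, 0.19) and Rxra, the partner of Nr1i2 and Nr1i3 (100.7 RPKM, 0.72). Of 7 genes known as PAR bZIP targets in detoxification none was called by limma. Their log2 peak to trough was 0.19 in Cyp2c50, 0.97 in Nr1i3, 1.35 in Cyp2a4, 1.57 in Cyp2b10, 1.60 in Por, 1.68 in Alas1 and 1.96 in Cyp2a5, with a median of 1.57 against 0.40 over all genes tested. The list was chosen with earlier results of these data known, so this median supports nothing about its direction or size.

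The other 15 symbols did not pass the read filter. Cyp2b9 and Cyp2s1 reached 20 reads in 1 library each, and 13 in none. Cyp2b9, a female-biased enzyme, had 2.21 RPKM at CT29 and a mean of 0.532, and Cyp2s1 a mean of 0.282 RPKM. Just inside the threshold stood Cyp2t4 (2 libraries, mean 0.758 RPKM), Cyp2c53-ps (3 libraries, 0.964) and, at 6 libraries each, Cyp1a1 (0.652), Cyp3a16 (1.43) and the called Cyp2g1 (1.59). Cyp2w1 was listed at 0 in every library.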

How the data were processed

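Polyadenylated liver RNA of 8 pooled libraries was sequenced. The deposited tables hold, per transcript, exon and intron, RPKM as a lower and an upper value, which the authors computed on genome build mm9, per the submitters' processing notes; no label or header names the aligner. The junction tables hold read counts per splice junction, as deposited by the authors. Transcripts were named through RefSeq (37 members) or Vega (10) identifiers, and the transcript with the largest summed lower value stood for each gene. RPKM values are whole multiples of the value of 1 read, which gave back whole reads within 0.1 read for 99.85% to 99.96% of lower values.

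Genes with 20 or more reads in 2 or more libraries were kept. The log2(RPKM + 0.5) values were fitted with limma 3.58.1 (trend and robust variances, R 4.3.3) using cosine and sine terms with a 24-h period, and p-values were adjusted by Benjamini-Hochberg over all genes tested. Days were compared with clock phase as a factor. Junction counts were tested with edgeR 4.0.16 (quasi-likelihood, TMM, 8602 genes), and introns with limma on log2(intron RPKM + 0.05) (8732 genes). edgeR and DESeq2 1.42.0 on recovered reads were alternatives. The scripts were tested on simulated data. The members, gene lists and tests were chosen with earlier results of these data known. Values in every library are given for members called in a test, for the member of highest mean in each subfamily and for that with the largest ratio of upper to lower value; of each list, called genes and the 2 of highest mean not called are named. An item of the regulator list is not reported here. Other genes, such as Cyp2c67 and those of the PAR bZIP list, were named after their values were seen. Sequences came from RefSeq promoter windows and GENCODE M21 transcripts (both GRCm38); coordinates of genes are those of the tables.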

Additional observations from a re-analysis of the deposited data

How the results depend on the processing

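Among the 47 members the limma test of exon RPKM called 1 with a 24-h component. This became 0 without the read filter, 3 with edgeR, 3 with DESeq2, 5 with array weights, 2 with transcripts named through RefSeq only, and, in alternatives chosen after seeing the data, 2 with the transcript of most reads and 2 with edgeR on upper-value reads; leaving out each library in turn gave 1 to 2. CT23 against CT11 called 0, but 1 with edgeR, 2 with DESeq2, 4 with array weights, 1 with day as a further term, 2 with RefSeq transcripts only and 2 with the transcript of most reads; leaving out each library gave 0 to 1. CT5 against CT17 called 1, but 0 without the read filter, 2 with edgeR, 2 with DESeq2 and 2 with edgeR on upper-value reads; leaving out each library gave 0 to 2. Junction reads called 2, but 3 with DESeq2, 4 without the filter and 0 to 3 with each library left out. Introns called 0, but 1 with a filter of 10 reads and 0 to 1 with each library left out. The comparison of days called 0 under every alternative run. The share of all genes called is not set beside the counts of these alternatives. A higher count therefore need not be particular to the members. The members' split in direction turned with TMM rescaling: 26 of 47 were higher at CT5 than at CT17 as given and 21 after it, and 23 and 28 were higher at CT23 than at CT11. The cause of these changes was not tested. The labels carry no replicate numbers; the fit with day as a further term, which blocks the libraries by day, changed no other call in the exon tests it was run on.

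Members with few reads, such as Cyp2t4 and Cyp1a1, and those whose upper value far exceeds the lower, such as Cyp2c40 and Cyp3a41b, are the least certain in level. Counting error is included in the scatter around each curve, and pooled animals leave the variation between animals unmeasured.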

Other observations

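Splice junctions whose ends lay within different members, in exons or introns, were rare. There were 162 such junctions with 280 reads in all, beside 1.72 M junction reads within members, and 128 had 1 read. The 3 with 10 or more reads joined Cyp2d9 with Cyp2d12 (36 and 12 reads) and Cyp2d22 with Cyp2d11 (10 reads), neighbours in the Cyp2d cluster of chromosome 15. Whether they are transcripts or misplaced reads was not tested.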
